A study of Aspergillus aculeatus with 24 samples.

Results

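Gene expression of the Aspergillus aculeatus strain BCC56535 was set against that of strain BCC199 while both grew in a medium of wheat bran and soy bean. The comparison took the libraries by their labels: 4 of BCC56535 and 4 of BCC199, which is 8 of the 24 libraries in the series. Each strain had replicates A and B on day 3 (72 h) and on day 6 (144 h), from mycelium grown with air at 30 °C, and no group carried a labelled gene deletion or added agent. The series also holds both strains in a glucose medium and the strain HUT2365 in both media, on the same days and with 2 libraries per group. The series describes its strains as unequal in breaking down plant biomass, without saying which is the stronger, and enzyme activities were not analysed here. Whether replicates A and B are separate cultures is not stated in the labels. The p-values here therefore reflect the variation among these libraries, and part or all of it could be technical.

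Aspergilli feed on plant material by secreting cellulases, hemicellulases, pectinases and proteases. Wheat bran is rich in cellulose and arabinoxylan, and soy bean adds protein and pectin. In aspergilli the genes for such enzymes are typically switched on by sugars released from the polymers, through activators such as XlnR and ClrB, and held down by glucose through the repressor CreA. The deposited table names genes by ID only, and 0 of 8615 IDs matched the 11152 genes of the reference table, so no enzyme or regulator could be identified. IDs are therefore grouped here by how they behaved: by their level in each strain, by day, by medium, and by the response of the strain HUT2365, whose libraries take no part in the comparison.

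The 8 libraries held 22368101 to 27113444 recovered reads, and 167 to 245 IDs had 0 reads in a given library. The 10 IDs with the most reads took 4.12% to 6.19% of a library. Replicates were less alike in BCC56535 than in BCC199: the SD of the log2 difference between A and B across IDs was 0.555 on day 3 and 0.632 on day 6 in BCC56535, and 0.319 and 0.414 in BCC199. No replicate pair was a duplicate, since the median chi-square per ID between replicates was 2.01 to 15.1 where sampling noise alone gives 0.455. Levels are given as normalized reads, the deposited value less its constant of 1. They are not divided by gene length, which the files do not give, so levels of different IDs are not compared as expression. Each level is relative to the rest of its library, and fewer hyphae expressing a gene cannot be told apart from less RNA per hypha.

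The strains differed at most IDs, and about as often in either direction. With day as a covariate, 5134 of 8343 IDs tested (61.5%) differed between the strains at an adjusted p under 0.05 (limma, Benjamini-Hochberg), the threshold used throughout. Of these, 2588 were higher in BCC56535 (31.0%) and 2546 were lower (30.5%). Of the 5134, 3321 differed by at least 2-fold, 1695 higher and 1626 lower. The median absolute log2 difference over all IDs tested, passed or not, was 0.82, on the log2(deposited value + 1) scale that is used for every log2 difference here. Differences of at least 4-fold were found for 829 IDs higher in BCC56535 (9.94%) and 675 lower (8.09%). At least 16-fold applied to 195 higher and 190 lower, and at least 256-fold to 10 higher and 15 lower. In 4309 IDs (51.6%) the 4 libraries of one strain all lay above the 4 of the other, and 4218 of these passed the test, 2103 higher and 2115 lower in BCC56535. The remaining 3209 IDs did not pass. How well the reads of each strain matched the reference used for counting is not stated, and its part in these differences was not tested.

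**Figure D1:**
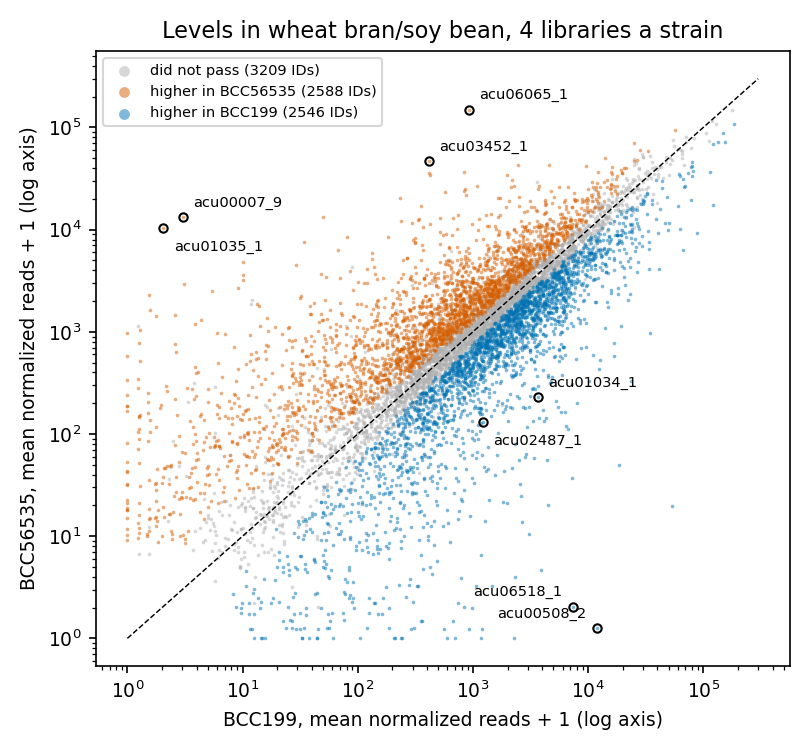
Mean normalized reads plus 1 of each of 8343 IDs in BCC199 (horizontal, log axis) and BCC56535 (vertical, log axis), over 4 wheat bran/soy bean libraries a strain. Coloured points passed the strain test, the dashed line marks equal levels, and circles mark 8 IDs described in the text; 2588 coloured points lie towards BCC56535 and 2546 towards BCC199.

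Some IDs had many reads in BCC56535 and almost none in BCC199, or the reverse. With a mean of at least 100 normalized reads in BCC56535 and under 10 in BCC199 there were 97 IDs. The reverse pattern held for 79 IDs. These IDs were picked for their strain difference, and they can pass the filter on low values through the higher strain alone, so they are a description and the strain test is no support for them. In 57 of the 97, BCC199 also stayed under 10 in glucose, whereas 17 reached 100 or more in BCC199 once it grew in glucose. Of the 79, 46 stayed under 10 in BCC56535 in glucose and 6 reached 100. Not a single read was found in the 4 BCC199 libraries for 7 of the 97 and in the 4 BCC56535 libraries for 9 of the 79. Adding the glucose libraries left 2 and 4 IDs, respectively, with 0 reads in all 8 libraries of the strain. The strain HUT2365 in the same medium had a mean of at least 100 for 41 of the 97 and 17 of the 79, and under 10 for 27 and 35.

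The 2 IDs furthest towards BCC56535 among those with no overlap and a mean under 10 in BCC199 were acu00007_9 and acu01035_1. For acu00007_9, BCC56535 had 6839 and 7099 normalized reads on day 3 and 16817 and 22638 on day 6. BCC199 had 7.22 and 0.935 on day 3 and 0 in both libraries of day 6. All BCC56535 libraries were high and all BCC199 libraries were near 0, with no overlap. The log2 difference was 11.82 (SE 0.62, adjusted p = 6.3e-06), and 12.44 without BCC199 day 3 replicate A. BCC199 had 8 reads in all, which gives a ratio of mean normalized reads of 6545 with a 95% exact binomial interval of 3200 to 14607. Such intervals cover counting error only, and fitted log2 differences against libraries at or near 0 depend on the pseudocount. The same ID had 6534 to 13677 in BCC56535 in glucose and at most 1.03 in BCC199 there. In HUT2365 it lay in between, at 88.1 to 270.2 in wheat bran/soy bean.

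For acu01035_1, BCC56535 had 17656 and 21061 normalized reads on day 3, and 164.4 and 2323 on day 6. BCC199 had 3.1, 0, 1.1 and 0. The groups did not overlap, although the BCC56535 libraries of day 6 were far below those of day 3 and far apart from each other. The log2 difference was 10.26 (SE 1.12, adjusted p = 0.00016), and it was 11.48 without BCC56535 day 6 replicate A. With 4 reads in BCC199, the ratio was 9829 (95% interval 3801 to 35725). HUT2365 had at most 0.882 in wheat bran/soy bean and 15.01 to 311.9 in glucose.

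In the other direction, acu00508_2 was high in every BCC199 library, at 11814 and 11179 normalized reads on day 3 and 12526 and 12214 on day 6. BCC56535 had a single read in its 4 libraries together, a level of 1.01 in day 3 replicate B and 0 elsewhere. The level hardly moved among the BCC199 libraries, and the strains did not overlap. The log2 difference was -12.39 (SE 0.20, adjusted p = 7.1e-08), and the ratio was 47124 in favour of BCC199 (95% interval 8595 to 1891692). HUT2365 carried this ID at 22259 to 29825. In glucose, BCC199 had 7714 to 9624 and BCC56535 at most 1.26 (log2 difference -11.76, SE 0.22, adjusted p = 4.9e-08). The glucose test is no support, since the ID passed its filter through BCC199 alone. BCC56535 was thus the strain at the bottom in both media.

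The ID acu06518_1 had reads in BCC199 in the plant medium but hardly any elsewhere. BCC199 had 6148 and 12399 normalized reads on day 3 and 3784 and 7219 on day 6, against 0, 0, 3.18 and 0.978 in BCC56535. Strains did not overlap, and the log2 difference was -11.24 (SE 0.45, adjusted p = 2.6e-06). The 4 reads in BCC56535 give a ratio of 7104 (95% interval 2895 to 27206). In glucose BCC199 itself had at most 4.14, and HUT2365 had 4.41 to 9.14 in wheat bran/soy bean. The log2 contrast between the media was -10.58 (SE 0.57, adjusted p = 1.3e-07). That test is no support, since the ID passed the filter through the BCC199 libraries of the plant medium alone.

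Among IDs with a mean of at least 100 in both strains and no overlap, acu06065_1 and acu03452_1 were furthest towards BCC56535. They also had the largest differences in mean normalized reads in that direction. For acu06065_1, BCC56535 had 131633 and 170372 on day 3 and 132735 and 161921 on day 6, against 939, 955.5, 892.5 and 879.9 in BCC199. The levels were steady within each strain and did not overlap, and the log2 difference was 7.33 (SE 0.13, adjusted p = 7.1e-08). HUT2365, at 857.3 to 1870, was close to BCC199. In glucose the log2 difference was 7.30 (SE 0.17), and the contrast between the media, 0.03 (SE 0.19), did not pass (adjusted p = 0.89).

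For acu03452_1, BCC56535 had 42042, 50310, 45458 and 49275 normalized reads, and BCC199 had 441.6, 471.2, 373.9 and 363.9, in the order day 3 A, day 3 B, day 6 A, day 6 B. Here HUT2365, at 34998 to 85558, was close to BCC56535, so BCC199 was the strain that stood apart. The log2 difference was 6.82 (SE 0.12, adjusted p = 7.1e-08) and was 1.37 larger than in glucose (SE 0.17, adjusted p = 5.8e-05).

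The IDs furthest towards BCC199 with a mean of at least 100 in both strains changed with day. For acu02487_1, BCC199 had 1621, 1526, 1008 and 726.6 normalized reads, and BCC56535 had 126.2 and 391 on day 3 and 0 in both libraries of day 6. On neither day did the strains overlap. The log2 difference was -5.78 (SE 1.12, adjusted p = 0.0029), and -6.69 without BCC56535 day 3 replicate B. It was 5.93 further towards BCC199 on day 6 than on day 3 (log2 contrast -5.93, SE 0.67, adjusted p = 0.0011). In glucose the order was the opposite, with BCC56535 higher by 2.93 (SE 0.67, adjusted p = 0.007).

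For acu01034_1, BCC199 had 3201, 3385, 4068 and 4009 normalized reads, and BCC56535 had 292.7, 571.3, 2.12 and 51.9. BCC199 was even and BCC56535 scattered, with no overlap. The log2 difference was -5.54 (SE 1.15, adjusted p = 0.004), and -4.29 without BCC56535 day 6 replicate A. HUT2365 had 0 reads in its 4 libraries of this medium.

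By difference in mean normalized reads, the IDs furthest towards BCC199 were acu03489_1 and acu00400_1. For acu03489_1, BCC199 had 193592 and 172741 on day 3 and 60400 and 55643 on day 6, and BCC56535 had 22984, 24186, 15983 and 6544. BCC199 was above BCC56535 on each day, with a log2 difference of -2.73 (SE 0.28, adjusted p = 0.00011). In glucose, BCC56535 had 2203, 2398, 771.4 and 1089 and BCC199 had 1621, 2153, 2443 and 2013. BCC56535 was thus above BCC199 on day 3 and below it on day 6 there, without overlap within a day. The averaged glucose difference of -0.49 (SE 0.33) did not pass (adjusted p = 0.25). The contrast between media was -2.24 (SE 0.33, adjusted p = 0.00018). For acu00400_1, BCC199 had 135574, 124577, 170312 and 191349 and BCC56535 had 82673, 49688, 68401 and 84424. No libraries overlapped, and the difference was about 2-fold (log2 -1.13, SE 0.21, adjusted p = 0.0023).

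**Figure D2:**
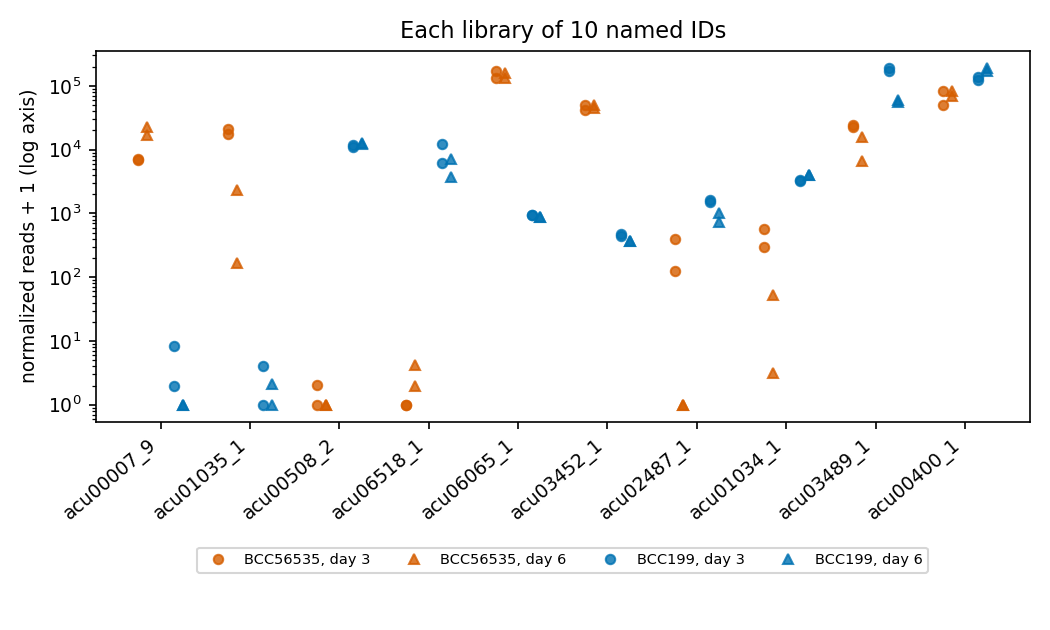
Normalized reads plus 1 (log axis) in each of the 8 wheat bran/soy bean libraries for 10 IDs, with circles for day 3 and triangles for day 6. Orange symbols are BCC56535 and blue symbols BCC199; no ID has overlapping strains, and the BCC56535 libraries of acu01035_1, acu02487_1 and acu01034_1 fall from day 3 to day 6.

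The IDs with the most reads were partly the same in both strains. Of the 50 IDs with the most reads in each strain, 29 were the same, and 39 of the 71 IDs on either list passed the strain test (54.9%, against 61.5% of all IDs). The 2 IDs with the most reads among those with an unadjusted p over 0.5 were acu01168_1 and acu07716_1. For acu01168_1, BCC56535 had 113811, 138600, 87140 and 127778 normalized reads and BCC199 had 95896, 87465, 144113 and 152538. BCC56535 was above BCC199 on day 3 and below it on day 6, with no overlap within either day, so the averaged log2 difference of -0.02 (95% interval -0.61 to 0.57, adjusted p = 0.96) joins opposite days. By day the difference was 0.46 (SE 0.24, adjusted p = 0.13) and then -0.49 (SE 0.24, adjusted p = 0.11). The contrast between the days was -0.95 (95% interval -1.74 to -0.15) and did not pass (adjusted p = 0.067). HUT2365 had 98.97 to 625.7 there. For acu07716_1, BCC56535 ranged from 67002 to 89509 and BCC199 from 64393 to 102517, with a difference of -0.05 and a 95% interval of -0.42 to 0.31 (adjusted p = 0.78).

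Differences were larger among IDs with few reads in HUT2365, which serves here as a yardstick outside the comparison. In the lowest quartile of IDs by their mean in HUT2365 in this medium, 64.6% passed and 37.1% did so with at least a 4-fold difference. In the highest quartile, 59.1% passed and 9.16% reached 4-fold, against 18.0% of all IDs tested. The median absolute log2 difference went from 1.45 in the lowest quartile through 0.82 and 0.66 to 0.64 in the highest. HUT2365 was nearer to BCC56535 for 2934 of the 5134 differing IDs (57.1%) and nearer to BCC199 for 2200. It lay between the strains for 2410, beyond BCC56535 for 1623 and beyond BCC199 for 1101.

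The IDs that answer to the medium in HUT2365 were then followed in the comparison. In HUT2365, 4761 of 8248 IDs (57.7%) differed between the media. Of these, 589 were at least 4-fold higher in wheat bran/soy bean than in glucose (7.14%), called induced here, and 418 at least 4-fold lower (5.07%), called repressed. Of the 578 induced IDs tested between the strains, 179 were higher in BCC56535, 172 were lower and 227 did not pass. The share that passed, 60.7%, was close to the 61.5% of all IDs, and the median log2 difference was 0.02 against 0.01 over all IDs. The sign of that median is not settled. It ran from -0.12 without BCC56535 day 3 replicate B to 0.17 without BCC199 day 6 replicate A. It was also below 0 without BCC56535 day 3 replicate A (-0.042) and without the BCC199 day 3 replicates A (-0.033) and B (-0.05), and above without BCC56535 day 6 replicates A (0.06) and B (0.098). Library weights gave -0.068, quantile normalization -0.0097 and voom weights 0.065. The differences were wider, however: 119 induced IDs were at least 4-fold higher and 97 at least 4-fold lower, 37.4% together against 18.0% of all IDs. Their median level in HUT2365 in this medium was 959.6 to 1419 normalized reads, within the quartile of 942.8 to 2570, where 9.54% reached 4-fold. That level follows in part from how the list was picked.

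In the induced group, the balance between the strains was not the same on the 2 days. On day 3, 236 induced IDs were higher in BCC56535 (40.8%) and 172 lower (29.8%), against 35.4% and 33.9% of all IDs, with a median log2 difference of 0.41 against 0.03. On day 6, 169 were higher (29.2%) and 216 lower (37.4%), against 31.0% and 31.4% of all IDs, with a median of -0.16 against 0.0022. The change from day 3 to day 6 was towards BCC199 for 186 induced IDs (32.2%, against 18.1% of all IDs) and towards BCC56535 for 75 (13.0%, against 15.5%). Its median was -0.72 on the log2 scale, against -0.02 over all IDs, and lay between -0.78 and -0.52 under every other setting and with each library left out. The median of day 3 was 0.24 without BCC56535 day 3 replicate B. That of day 6 was -0.072 without BCC199 day 6 replicate A, -0.32 without its replicate B, -0.27 without BCC56535 day 6 replicate A, -0.10 with quantile normalization and -0.093 with voom weights.

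The levels of the 589 induced IDs show the same by library. Their median in BCC56535 was 644.2 and 826.5 normalized reads in the day 3 libraries and 355.3 and 316 in those of day 6. In BCC199 it was 481.9 and 489 on day 3 and 441.9 and 392 on day 6. BCC56535 was thus above BCC199 on day 3 and below it on day 6, with no overlap on either day. In HUT2365 the median was 959.6 to 1419. By share of reads the order was another. The induced IDs took 11.5% and 12.2% of the reads of BCC56535 on day 3 and 9.47% and 8.88% on day 6, against 13.2%, 13.0%, 11.5% and 11.3% in BCC199. On each day BCC199 was the higher, also when acu03489_1 was left out, a choice made after its values were seen (12.4% and 12.3%, then 11.3% and 11.1%, against 11.4%, 12.1%, 9.40% and 8.85% in BCC56535). In glucose the induced IDs took 4.13% to 7.11% in BCC56535, 6.02% to 7.68% in BCC199 and 1.45% to 1.97% in HUT2365. The HUT2365 values of both media follow in part from picking the list in that strain.

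**Figure D3:**
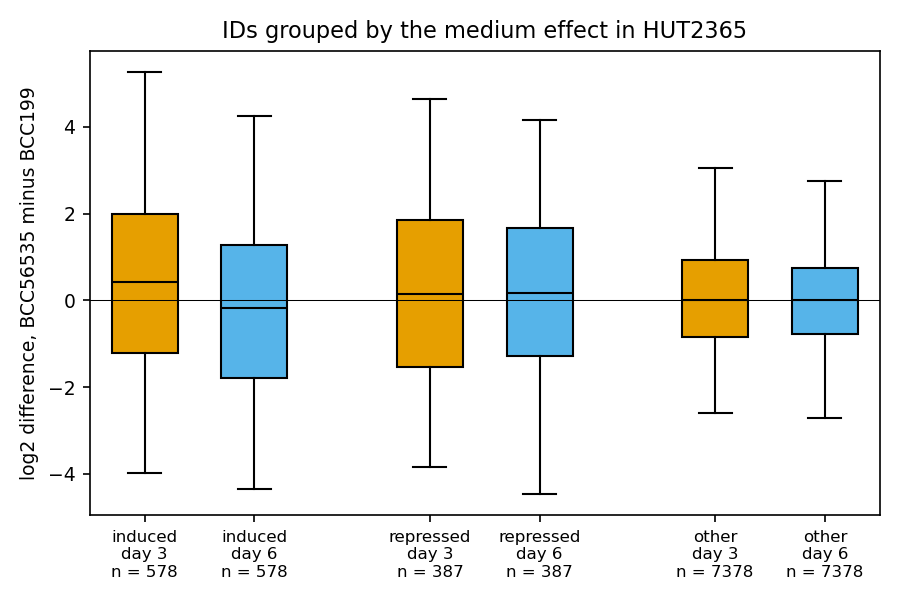
Log2 difference of BCC56535 minus BCC199 on day 3 (orange) and day 6 (blue) for IDs induced, repressed or neither in HUT2365. Boxes span the quartiles with the median as a line, and whiskers run from the 5th to the 95th percentile; the median of the 578 induced IDs is 0.41 on day 3 and -0.16 on day 6, while that of the 387 repressed IDs is 0.15 and 0.16.

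The induced IDs furthest towards BCC56535 without overlap were acu00097_2 and acu02302_1. For acu00097_2, BCC56535 had 1706 and 1714 normalized reads on day 3 and 132.6 and 307.2 on day 6, while BCC199 had 0 reads in 4 of 4 libraries. Against the limit of 3 reads per library, the BCC56535 mean over both days, 965, was at least 304-fold higher. Day 3 set most of that mean (1710 against 219.9 on day 6), so the bound does not hold for day 6 by itself. HUT2365 had 975.1 to 2072, so BCC199 was the strain without reads in this medium. The strain test gave an adjusted p of 3.1e-05, which is no support, since the ID passed the filter through BCC56535 alone. For acu02302_1, BCC56535 had 4193, 4645, 2035 and 1917 against 7.22, 13.1, 4.39 and 11.7 in BCC199, with no overlap and a log2 difference of 8.14 (SE 0.32, adjusted p = 2.5e-06).

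Towards BCC199, acu02366_1 had 1493, 3159, 2990 and 1406 normalized reads in BCC199 and 0 reads in all 8 BCC56535 libraries of both media. BCC56535 was at least 757-fold lower (adjusted p = 1.5e-06), and HUT2365 had 129.6 to 1186. For acu02489_1, BCC199 had 1559, 1855, 3229 and 2662, and BCC56535 had 2.81, 6.08, 2.12 and 0.978. The strains did not overlap, and 12 reads in BCC56535 gave a ratio of 777 (95% interval 445.2 to 1506). The strain test (adjusted p = 3.1e-06) is no support for this ID or for acu02366_1, since each passed the filter through BCC199 alone.

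Of the 387 repressed IDs tested, 141 were higher in BCC56535 (36.4%, against 31.0% of all IDs), 117 were lower (30.2%, against 30.5%) and 129 did not pass. The median log2 difference was 0.15 (0.06 without BCC56535 day 6 replicate A, 0.073 without BCC199 day 6 replicate A, 0.095 with quantile normalization). Of the repressed IDs, 66.7% passed (against 61.5% of all IDs), and 34.1% passed with at least a 4-fold difference (against 18.0%). Their median level in HUT2365 in this medium was 104.5 to 141.9 normalized reads, within the lowest quartile described above (up to 284.2). In that quartile 64.6% passed and 37.1% reached 4-fold, so the 34.1% was not above that of IDs with few reads in HUT2365. In HUT2365, whose own libraries defined the list, they took 0.915% to 1.08% of the reads. Their share was 1.80% to 2.70% in the BCC56535 libraries and 1.42% to 1.5% in those of BCC199, without overlap. By median level, however, the strains overlapped on each day. On day 3 the median was 135.6 and 126.1 normalized reads in BCC56535 and 127.9 and 137 in BCC199. On day 6 it was 190.4 and 166.3 against 188 and 189.5. The repressed IDs furthest towards BCC56535 were acu01035_1, described above, and acu00044_1. For acu00044_1, BCC56535 had 20843, 17169, 8916 and 6479 normalized reads in the plant medium, and BCC199 had 9.29, 7.48, 62.5 and 115.8. The strains did not overlap (log2 difference 8.64, SE 0.82, adjusted p = 8.3e-05; 9.25 without BCC199 day 6 replicate B). In glucose, BCC56535 had 1035 and 2844 on day 3 and 40557 and 44041 on day 6, against 54223, 37646, 8118 and 11487 in BCC199. BCC56535 was thus below BCC199 on day 3 there and above it on day 6, without overlap within a day. The averaged glucose difference joins these opposite days and did not pass (adjusted p = 0.41). BCC199 and HUT2365, at 7.06 to 96.74 in the plant medium, were thus low where BCC56535 was not.

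Towards BCC199, acu07734_1 had 1064, 1140, 1220 and 1396 normalized reads in BCC199 and 1 read in the 4 BCC56535 libraries together. The ratio was 5155 (95% interval 867.5 to 191048). The strain test (adjusted p = 6.5e-07) is no support here, since the ID passed the filter through BCC199 alone. For acu00021_4, BCC199 had 6587, 6560, 2047 and 2309, and BCC56535 had 2.81 and 1.01 on day 3 and 116.7 and 95.9 on day 6. BCC56535 was the lower throughout, by a log2 difference of -7.55 (SE 1.17, adjusted p = 0.00094; -6.77 without day 3 replicate B of BCC56535). The gap was narrower on day 6, by 6.42 (SE 0.36, adjusted p = 0.00012).

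The strain difference depended on the day for many IDs. On day 3, 5781 IDs (69.3%) differed between the strains, 2955 higher and 2826 lower in BCC56535. On day 6, 5207 (62.4%) differed, 2585 higher and 2622 lower. The median absolute log2 difference was 0.96 on day 3 and 0.80 on day 6. Of the 4028 IDs that passed on both days, 3688 had the same direction and 340 the opposite: 194 were higher in BCC56535 on day 3 and lower on day 6, and 146 the reverse. Across the 8343 IDs, Pearson's r between the differences on the 2 days was 0.749.

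The test of the change itself, strain by day, was passed by 2803 IDs (33.6%). Of these, 1297 moved towards BCC56535 by day 6 (15.5%) and 1506 towards BCC199 (18.1%). The split turned round with voom weights, to 1554 and 1151, and with quantile normalization, to 1527 and 1347. The median log2 contrast over all IDs shifted from -0.02 to 0.12 and 0.084, respectively. The count fell to 1352 without BCC199 day 3 replicate A, 1399 without day 3 replicate B, 1724 without day 6 replicate A and 1641 without day 6 replicate B of the same strain. These are the libraries of the strain with the narrower replicate spread. In the induced IDs, the moves towards BCC199 outnumbered those towards BCC56535 under each of these settings, for example 117 against 48 without BCC199 day 3 replicate A and 147 against 75 with voom weights. BCC56535 changed more between the days than BCC199 for 2070 of the 2803 IDs, and BCC199 more for 733. The difference between the strains was smaller on day 6 than on day 3 for 1634 of the 2803 IDs. These counts are a description only, since the matching shares over all IDs tested were not computed. Replicates were also less alike in BCC56535, and the part of that spread in these counts was not tested.

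The largest move towards BCC56535 was that of acu07232_1. BCC199 had 1671 and 3058 normalized reads on day 3 and 2.19 and 0 on day 6, while BCC56535 had 0 reads in 4 of 4 libraries. The strain test of day 3 gave an adjusted p of 4.6e-06, and the log2 contrast between the days was 9.61 (SE 0.74, adjusted p = 0.00033). This ID was picked for that contrast and passed the filter through the BCC199 day 3 libraries alone. Its values are therefore a description, and the tests are no support for it. In acu04733_1 it was BCC56535 that changed, from 0.935 and 5.07 on day 3 to 2592 and 783.6 on day 6, while BCC199 had 514.9, 506.7, 688.6 and 159.1. BCC56535 was below BCC199 on day 3 and above it on day 6, and the contrast was 8.91 (SE 1.11, adjusted p = 0.0016; 9.96 without BCC199 day 6 replicate A). This ID was among those induced in HUT2365.

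The largest moves towards BCC199 were those of acu00115_2 and acu07845_1. For acu00115_2, BCC56535 had 70.1 and 188.4 normalized reads on day 3 and 3.18 and 0.978 on day 6, while BCC199 had 40.2 and 39.3 and then 438.6 and 362.7. The order of the strains turned round, with a contrast of -8.16 (SE 0.70, adjusted p = 0.00041; -7.46 without BCC56535 day 3 replicate B). For acu07845_1, BCC56535 had 43, 38.5, 3.18 and 36.2, and BCC199 had 0 and 0 on day 3 and 152.4 and 147.4 on day 6. The contrast was -7.85 (SE 1.15, adjusted p = 0.0027), -6.41 without BCC56535 day 6 replicate A, the lowest library of that strain, and -4.87 with a pseudocount of 10.

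**Figure D4:**
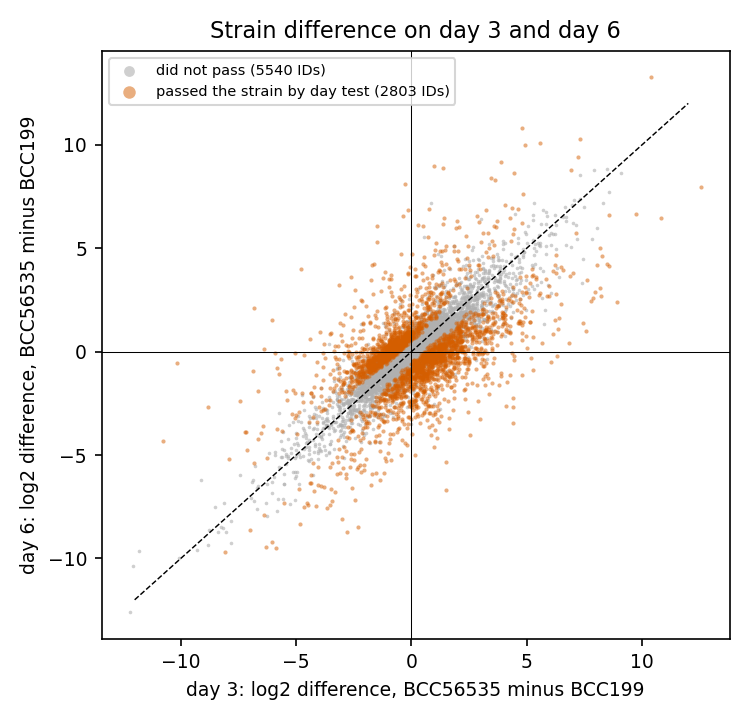
Log2 difference of BCC56535 minus BCC199 on day 3 (horizontal) and day 6 (vertical) for 8343 IDs, with the dashed line where the days are equal. The 2803 orange IDs passed the strain by day test and the 5540 grey IDs did not; orange points in the upper left and lower right corners have opposite directions on the 2 days.

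In glucose, 4100 of 8359 IDs (49.0%) differed between the strains. Libraries A and B were mostly less alike in glucose than in the plant medium. Their spread, measured as above, was 0.776 on day 3 and 0.708 on day 6 in BCC56535, against 0.555 and 0.632. In BCC199 it was 0.762 against 0.319 on day 3, but 0.405 against 0.414 on day 6. Counts that pass in each medium are therefore not directly comparable, and the part of this spread in them was not tested. Of the 8251 IDs tested in both media, 2773 differed in both, and 2422 of these had the same direction, which is 47.8% of those differing in wheat bran/soy bean and 60.1% of those differing in glucose. In 351 the direction was opposite, 172 of them higher in BCC56535 in the plant medium. Across these IDs, r between the differences in the 2 media was 0.584.

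The test of strain by medium was passed by 3991 of 8458 IDs (47.2%), 2036 with the contrast towards BCC56535 in wheat bran/soy bean (24.1%) and 1955 towards BCC199 (23.1%). Of the IDs that differed in wheat bran/soy bean, 2612 also passed the test of strain by medium. A difference in the plant medium that was not passed in glucose, and that passed the strain by medium test, was found for 1464 IDs. Another 1625 had the same direction in both media and no difference past the threshold between them.

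The largest contrasts towards BCC56535 were found for acu00707_1 and acu06525_1. For acu00707_1 the strains parted in glucose, where BCC199 had 19571 to 50226 normalized reads and BCC56535 0.959 to 29.7. In wheat bran/soy bean all 8 libraries were between 0 and 7.09, too low to be tested there. The contrast was 12.69 (SE 0.58, adjusted p = 4.5e-08). For acu06525_1, BCC56535 had 212.2, 203.6, 365.9 and 389.3 in the plant medium against 0, 0, 1.1 and 3.51 in BCC199. In glucose it was BCC199 that had the reads, 59.6 to 167.1 against at most 8.79. The contrast was 11.47 (SE 0.74, adjusted p = 4.3e-07; 10.86 without BCC56535 glucose day 3 replicate B), and the ratio in the plant medium was 254 (4 reads in BCC199, 95% interval 107.8 to 1017).

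The largest contrasts towards BCC199 were found for acu02372_1 and acu00144_1. For acu02372_1, BCC56535 had 16442 to 21533 normalized reads in glucose and 19.6, 0, 0 and 0 in the plant medium, whereas BCC199 had 14.3 to 30.9 in the plant medium and 4.6 to 36.6 in glucose. The contrast was -12.66 (SE 0.77, adjusted p = 2.7e-07; -13.52 without BCC56535 day 3 replicate A, the library with the reads). For acu00144_1, BCC199 had 3035, 3014, 836.6 and 616.6 in the plant medium against 54.2, 84.1, 22.3 and 9.78 in BCC56535, without overlap (log2 difference -5.43, SE 0.27, adjusted p = 5.4e-06). In glucose BCC56535 was the higher, at 3219 to 55474 against 56.5 to 1101. The contrast was -11.36 (SE 1.0, adjusted p = 3.8e-06; -12.39 without BCC56535 glucose day 3 replicate A). HUT2365, with 12.2 to 115 in the plant medium and 23727 to 29997 in glucose, had its reads in the same medium as BCC56535.

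**Figure D5:**
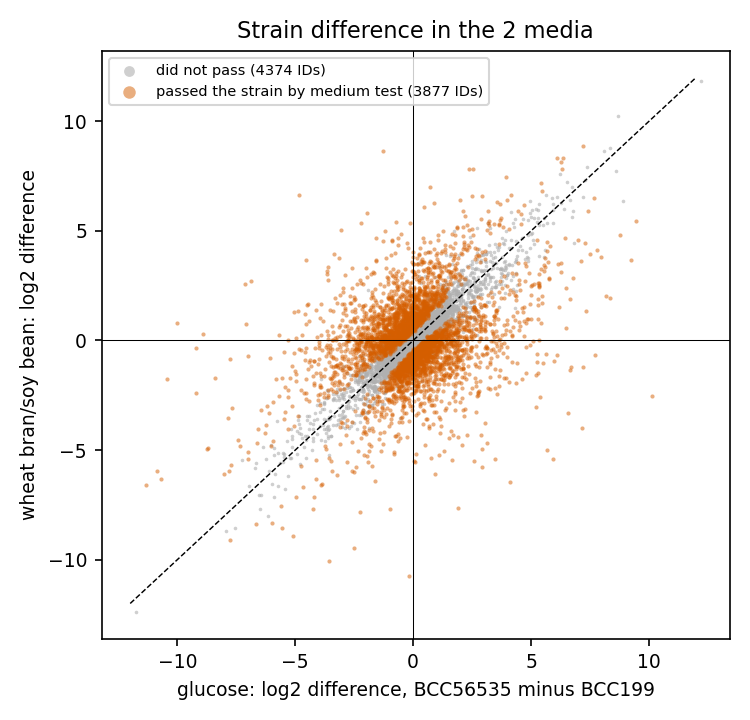
Log2 difference of BCC56535 minus BCC199 in glucose (horizontal) and in wheat bran/soy bean (vertical) for 8251 IDs tested in both media, with the dashed line where the media are equal. The 3877 orange IDs passed the strain by medium test and the 4374 grey IDs did not; 351 IDs passed in both media with opposite directions.

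IDs consist of a number and, as their last digit or digits, a member number, and the meaning of a shared number is not stated in the files or labels. Of the 958 tested IDs that share their number with another, 65.3% differed between the strains and 31.5% did so by at least 4-fold, against 61.0% and 16.3% of the 7385 others. Reads common to IDs of the same number could not be separated. In 63 of 400 numbers with at least 2 tested members, members differed in opposite directions without overlap. This is given as a description only, since 51.6% of all IDs did not overlap, about as often in either direction. The widest gaps were within acu00007 and acu00011. Beside acu00007_9, which was high in BCC56535, acu00007_8 was high in BCC199, at 234.2, 255.2, 527.4 and 456.3 normalized reads against 0.935, 12.2, 1.06 and 0.978. No overlap between the strains was seen for acu00007_8 (log2 difference -6.30, SE 0.60, adjusted p = 8.2e-05). The difference was -6.97 without BCC56535 day 3 replicate B. The strain test is no support for this ID, since it passed the filter through BCC199 alone.

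In the second such number, acu00011_1 had 1174, 1067, 1222 and 359 normalized reads in BCC56535 and 7.22, 0, 7.67 and 9.36 in BCC199. The difference was 7.01 (SE 0.66, adjusted p = 7.7e-05), and 6.36 without BCC199 day 3 replicate B. The strain test is no support for acu00011_1, since it passed the filter through BCC56535 alone. Its partner acu00011_3 went the other way. BCC199 had 109646 and 97791 on day 3 and 3990 and 3351 on day 6, against 12.2, 57.7, 2.12 and 2.94 in BCC56535. The strains did not overlap on either day, with a difference of -10.73 (SE 0.55, adjusted p = 6e-06; -10.10 without BCC56535 day 3 replicate A). In glucose, acu00011_3 had 432.7 and 611.8 on day 3 and 44.2 and 140.1 on day 6 in BCC56535. BCC199 had 74.8, 314.5, 552.4 and 201.6 there. BCC56535 was thus above BCC199 on day 3 and below it on day 6, with no overlap within either day. The averaged difference in glucose, -0.16, joins these opposite days. It had an SE of 0.86 and did not pass (adjusted p = 0.89). The contrast between the media was -10.57 (SE 0.77, adjusted p = 1.1e-06).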

How the data were processed

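RNA was sequenced from mycelium. Per the labels' protocols, ribosomal RNA was removed, messenger RNA was enriched, and libraries made with NEBNext Ultra were read in pairs on an Illumina HiSeq2000. The tools listed per the submitters' processing notes are Picard, StringTie and HISAT2 2.1.0. What each did, the genome build and annotation, the counter and whether it used strand, and the normalizing tool are all not given in the sources at hand. The authors deposited a signal per ID, normalized read counts that are never negative and start at 1. The deposited value less 1 was a whole multiple of 1 step per library for 100% of values (within 0.02 of a step), and reads were recovered from these steps.

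Here limma 3.58.1, under R 4.3.3 and with an intensity trend, was fitted to log2(deposited value + 1), two-sided, with Benjamini-Hochberg adjustment over all IDs tested. This scale understates the change of low IDs. IDs had to reach a deposited value of 10 in 2 or more of the fitted libraries, which left out 272 of 8615. The strain effect used the 8 libraries with day as covariate (5 residual degrees of freedom), the days 4 group means (4), strain by medium 16 libraries (8) and the HUT2365 lists its 8 libraries (5). Named IDs are at most 2 in each direction per rule. Those without overlap were the largest differences among IDs near 0 in a strain, present in both, by reads, in the HUT2365 lists and within a shared number. The largest contrasts by day and by medium could overlap. All of these except the IDs within a shared number needed a mean of 100 normalized reads in the higher group. The 2 most read IDs with an unadjusted p over 0.5 were added without such a minimum. A lower group with 0 reads was set to 3 reads per library, and ratios over few reads have 95% exact binomial intervals. Members, lists and tests were chosen with earlier results of these data known. The scripts were tested on simulated data. Summaries and plots were made with pandas 2.3.3, numpy 2.4.6, matplotlib 3.10.9 and scipy 1.17.1 in Python 3.11.15. The alternatives are given in the closing section.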

Additional observations from a re-analysis of the deposited data

Results flagged for a closer look

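These results are listed because the difference between BCC56535 and BCC199 was itself different between days or between media, by the limma test of the interaction. The test of strain by day was passed by 2803 IDs and that of strain by medium by 3991. Between days, the named IDs had log2 contrasts (day 6 minus day 3) of 9.61 for acu07232_1 and 8.91 for acu04733_1, and of -8.16 for acu00115_2 and -7.85 for acu07845_1. The test is no support for acu07232_1, which passed the filter through the BCC199 day 3 libraries alone. Between media, the log2 contrasts (wheat bran/soy bean minus glucose) were 12.69 for acu00707_1, 11.47 for acu06525_1, -12.66 for acu02372_1 and -11.36 for acu00144_1. The groups of 2 libraries are too small to test for a single library that stands apart.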

How the results depend on the processing

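The results were recomputed with each library left out in turn, with the replicate letter as a block, with all 24 libraries in the fit, with library weights, with voom weights on the recovered reads, after quantile normalization or scaling by trimmed means, without the filter, and with pseudocounts of 0.5 and 10. Over these, the strain effect was passed by 4345 to 5817 IDs, day 3 by 4564 to 6044, day 6 by 4120 to 5542 and strain by medium by 3376 to 4218, each within 1.5 times the value reported. Strain by day was the exception. Leaving out each library in turn gave 1352 to 3231 IDs, lowest without the 4 BCC199 libraries (1352, 1399, 1724 and 1641), where the other settings stayed within 1.5 times. All 540 values of named IDs that could be computed kept their side of the threshold and, where past it, their direction. A group left with 1 library is assumed to vary like the others. For acu07232_1, strain by day could not be tested without either BCC199 day 3 library, since the filter then removes it. Leaving out a library moved the fold of 15 of 30 named values by over 1.5 times, at most 2.71 times.

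Libraries with the same letter did not deviate together (correlations of 0.0187 to 0.16 between BCC56535 and BCC199 within day and medium), so the letter is not taken as a pairing. With the replicate block, the strain effect was passed by 4345 IDs, strain by day by 2546, day 3 by 5644, day 6 by 5063 and strain by medium by 3906. With 2 libraries per group, small differences and differences of IDs near 0 reads are poorly resolved, and library weights were estimated with a warning about convergence.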

Other observations

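In the order of their numbers, neighbouring IDs were slightly alike in their strain difference, and runs of IDs differed in the same direction. Pearson's r between the log2 differences of adjacent IDs was 0.12, against 0.041 for IDs 2 places apart, 0.012 for 10 and 0.021 for 100, as a description across IDs, which are not independent. The files and labels do not say whether the numbers follow the genome. The longest run of IDs past the threshold with at least a 2-fold difference in the same direction held 8 IDs, acu02297_1 to acu02304_1, higher in BCC56535 with log2 differences of 1.51 to 8.80; it includes acu02302_1, induced in HUT2365. Runs of 7 lower in BCC56535 were acu03501_1 to acu03507_1 (-7.81 to -1.15) and acu06602_1 to acu06609_1 (-5.23 to -1.95). A run of 6 lower, acu02484_1 to acu02490_1 (-8.90 to -1.50), holds acu02487_1 and acu02489_1. These runs were chosen after their values were seen.

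Adjacent numbers could also go in opposite directions: acu01034_1 had a log2 difference of -5.54 and acu01035_1 one of 10.26. In both, the BCC56535 libraries of day 6 were below those of day 3, and HUT2365 had less than 1 normalized read in wheat bran/soy bean.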
